A study of Mus musculus with 8 samples.

Results

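The genes described here are the sensors of the unfolded protein response with the transcription factors and feedback genes directly downstream of them, measured in sorted mouse Paneth cells (PCs) after tumor necrosis factor (TNF). They were taken by name as a list of 10 genes out of the 55414 genes of the count table, by their role in the pathway. The IRE1 branch was represented by Ern1, Ern2 and Xbp1. The PERK branch was represented by Eif2ak3, Atf4, Ddit3, Trib3, Ppp1r15a and Chac1, and the ATF6 branch by Atf6. Each of the 10 had counts in each library, and all 10 were among the 10707 genes that passed the expression filter. The RNA came from PCs sorted from the small intestine of C57BL/6J mice (strain as named in the methods of the study). For 7 days, 4 mice drank Milli-Q water and 4 mice drank water with 25 mM zinc sulfate. By the labels all 8 mice received TNF, an inflammatory cytokine, with samples taken 3 hours later, and no library labelled as free of TNF enters any comparison. Each library was bulk RNA-seq of PCs from 1 mouse, and age and sex of these mice are not given in the sources used here.

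As background, the unfolded protein response is started when misfolded proteins build up in the endoplasmic reticulum, and 3 membrane sensors carry the signal. IRE1 is an RNase that removes a short intron from Xbp1 mRNA, PERK phosphorylates eIF2alpha, which slows translation in general but favors that of Atf4, and ATF6 is cut in the Golgi to release a transcription factor. PCs are professional secretory cells that make large amounts of antimicrobial protein, and they are known to depend on Xbp1. The gut epithelium has, beside the widely expressed IRE1alpha (Ern1), a second form, IRE1beta (Ern2), best known from goblet cells. Counts per gene do not tell spliced from unspliced Xbp1 mRNA, and they hold nothing on phosphorylation, cleavage or translation.

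Library totals ran from 10623658 to 15101627 counts, and a gene at 0 could have been present at up to 3 counts, which equals 0.179 to 0.369 CPM (counts scaled to TMM-corrected library sizes). Zinc replicate 3 stood apart: its highest correlation with another library was 0.890, against 0.964 to 0.983 for each of the other 7. The 19 tested genes of a TNF and NF-kB response list summed to 174 CPM in zinc replicate 3, and to 1899 to 2236 CPM in the other 7 libraries. Whether that mouse received TNF, and whether its label is right, cannot be read from the labels and was not tested, so each zinc value that includes it carries this doubt. Milli-Q water replicates 3 and 4 differed from the rest in that their levels fell with transcript length (rho -0.230 and -0.242, against 0.016 to 0.175). The PC markers Defa24, an alpha-defensin, at 135313 to 281499 CPM, and Lyz1, lysozyme, at 133076 to 213550 CPM, were high in every library. The goblet cell mucin Muc2 was counted at 1950 to 9290 CPM, while the stromal collagens Col1a1 and Col3a1 were at 0 in all 8 libraries. In bulk samples, fewer cells of a type and less RNA per cell cannot be told apart. The zinc differences of the 10 genes are therefore given with and without zinc replicate 3, and with and without Milli-Q water replicates 3 and 4.

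The sequences before the start sites of Chac1, Trib3 and Ppp1r15a are shown because these 3 genes varied most between libraries and, as background, are induced by ATF4. The windows are from RefSeq, hold 250 bases before and 50 bases from the start site, run 5' to 3' on the strand of the gene, and were placed on GRCm39 by exact match. Of the 10 genes, 8 were in the promoter table. Capitals mark an element found by search on both strands.
Chac1 (chr2:119181473-119181772, plus strand): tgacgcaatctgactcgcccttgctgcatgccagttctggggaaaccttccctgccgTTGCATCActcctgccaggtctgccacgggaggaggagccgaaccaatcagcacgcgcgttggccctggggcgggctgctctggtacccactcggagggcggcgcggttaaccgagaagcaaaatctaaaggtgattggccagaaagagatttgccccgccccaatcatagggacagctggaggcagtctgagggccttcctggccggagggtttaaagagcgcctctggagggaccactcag
Trib3 (chr2:152185931-152186230, minus strand): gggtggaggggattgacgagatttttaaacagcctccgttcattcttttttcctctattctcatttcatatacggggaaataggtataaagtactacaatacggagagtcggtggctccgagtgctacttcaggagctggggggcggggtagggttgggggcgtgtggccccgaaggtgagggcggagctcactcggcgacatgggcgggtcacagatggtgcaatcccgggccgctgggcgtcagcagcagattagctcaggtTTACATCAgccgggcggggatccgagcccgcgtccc
Ppp1r15a (chr7:45175643-45175942, minus strand): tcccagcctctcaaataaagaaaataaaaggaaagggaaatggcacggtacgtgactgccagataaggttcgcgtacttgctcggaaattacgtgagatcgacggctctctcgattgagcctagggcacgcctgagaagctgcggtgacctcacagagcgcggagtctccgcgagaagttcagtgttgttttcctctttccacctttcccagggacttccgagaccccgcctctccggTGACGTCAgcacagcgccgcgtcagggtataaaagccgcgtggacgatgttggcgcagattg

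The windows of Chac1 and Trib3 each held the C/EBP-ATF response element, searched as TGATGNAA, in reverse orientation: TTGCATCA in Chac1, with its first base at position -193 when the start site is position 0, and TTACATCA in Trib3, at position 15. No other of the 8 windows held it, and 3.97% of the 32851 windows of the table did. The window of Ppp1r15a held the cAMP response element TGACGTCA at position -12, a motif present in 1.79% of all windows. The ER stress response element (the letters CCAAT, 9 free bases and CCACG, in 0.119% of all windows) and TGACGTGG, a site bound by XBP1 and ATF6 (0.676%), were in none of the 8 windows. The NF-Y box CCAAT, in 37.4% of all windows, was counted 6 times before Eif2ak3, 3 times before Chac1, 2 times before Atf4 and 1 time before Ddit3, and was not found in the other 4 windows. A match is a description of the letters and not evidence of binding.

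The 10 genes differed widely in level. Levels between genes were compared per length, as TPM, transcript counts scaled to library and gene length, with the summed exon length of each gene. Atf4 was the most abundant, at 132 ± 35.5 TPM (SD, n = 8), above 99.2% of the genes tested. Xbp1 followed at 72.5 ± 20.5 TPM and Chac1 at 48.4 ± 27.4 TPM. Ern2 was at 25.9 ± 7.89 TPM, Ppp1r15a at 21.4 ± 8.48 TPM and Ern1 at 15.1 ± 5.24 TPM. The other 2 sensors were close to Ern1, with Eif2ak3 at 13.1 ± 4.48 TPM and Atf6 at 12.0 ± 3.75 TPM. Trib3 had a mean of 16.4 ± 11.4 TPM, but its mean on the log2 scale, by which the genes were ordered, put it after Atf6. Ddit3, which encodes CHOP, was far below the rest at 0.521 ± 0.180 TPM, above only 20.5% of the genes tested. That level depended on the length used, 5579 bases of exons against 979 bases in the canonical transcript. It was 2.56 TPM by canonical transcript and 2.99 TPM by coding length, the lowest of the 10 by either.

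**Figure D1:**
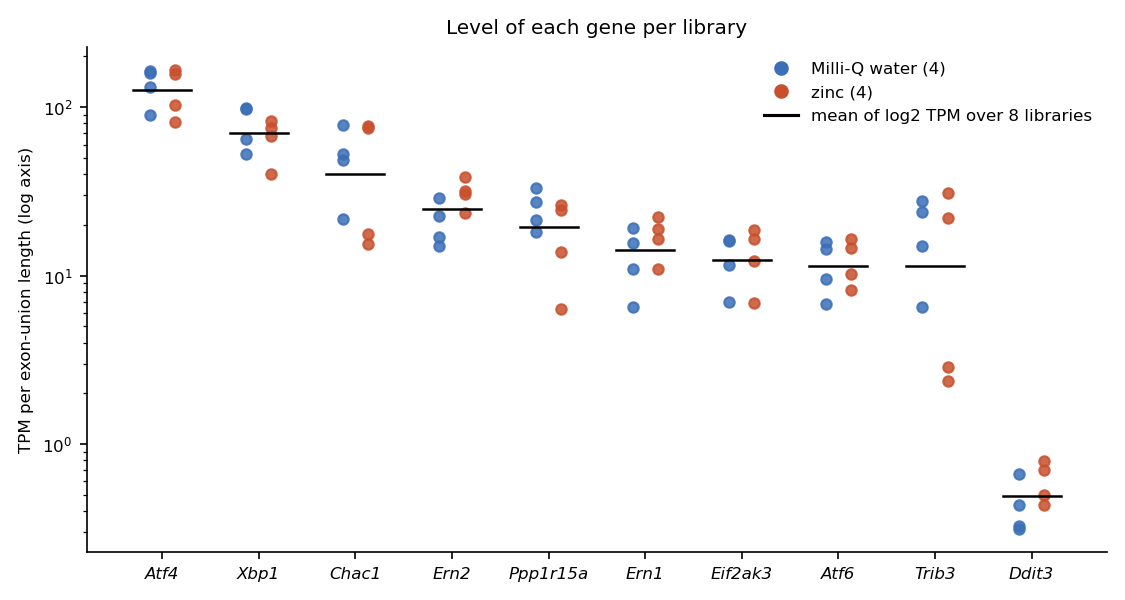
TPM per exon-union length (log axis) of each gene in the 4 Milli-Q water (blue) and 4 zinc (orange) libraries; the black line is the mean of log2 TPM over the 8 libraries. Atf4 lies highest, Ddit3 lies below 1 TPM in every library, and the points of Trib3 and Chac1 are the most spread.

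Neighbors in this order were compared within libraries by an exact two-sided sign-flip permutation test, adjusted over the 9 pairs. Only 3 pairs differed beyond their spread: Atf4 over Xbp1 (8 of 8 libraries, adjusted p = 0.0352), Xbp1 over Chac1 (7 of 8, adjusted p = 0.0469) and Trib3 over Ddit3 (8 of 8, adjusted p = 0.0352). From Chac1 down to Trib3, no gene was set apart from its neighbor, with adjusted p from 0.221 to 0.992. The places of several genes depended on the length used. By the length of the canonical transcript Xbp1 stood above Atf4, at 220.2 against 155 TPM. By coding length Atf6 rose from place 8 to 4, at 31.0 TPM, and Trib3 from 9 to 6, while Ern2 fell from 4 to 8. Without zinc replicate 3 or 4 the count stayed at 3 of the 9 pairs, and without any other library it was 0. Fewer libraries raise the smallest possible exact p, so a count of 0 can come from the test alone. It does not show that the order was lost.

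Ddit3 was counted 23 to 60 times per library and 320 times in all, which is well above the limit of 3 counts but leaves wide counting error. Its gene model (chr10:127124268-127132163) overlaps Mars1 and Mbd6 on the opposite strand, with 6103 and 2679 counts, and it also overlaps a second annotated Ddit3 gene on its own strand, with 0 counts. How the counting treated overlaps and strand was not given in the sources used here, so the Ddit3 values are uncertain. Xbp1 also overlaps an opposite-strand gene, Ccdc117, with 2295 counts against 55963 for Xbp1.

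Whether the epithelial IRE1beta or the widely expressed IRE1alpha was the more abundant form was not settled by the counts. Raw counts of Ern1 (chr11:106283818-106378686) exceeded those of Ern2 (chr7:121769116-121785468) in 7 of 8 libraries, from 866 to 2986 against 593 to 1699. The Ern1 exons, however, span 10092 bases together and those of Ern2 only 3002. Per exon-union length, Ern2 was at 1.85, 1.17, 2.30 and 1.54 TPM per TPM of Ern1 in Milli-Q water replicates 1 to 4. With zinc this ratio was 1.68, 1.37, 3.49 and 1.42. The mean log2 ratio was 0.81 ± 0.50 (SD, n = 8), with Ern2 higher in 8 of 8 libraries (exact two-sided sign-flip p = 0.00781, the smallest this design allows).

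By other lengths that order was weaker or reversed. By the canonical transcripts, of 7002 and 2914 bases, the mean log2 ratio was 0.32, with Ern2 higher in 6 of 8 libraries (exact sign-flip p = 0.0938). By coding length, 2946 and 2733 bases, it was -0.83, with Ern2 higher in 1 of 8 (exact sign-flip p = 0.0156). Coding length leaves out untranslated bases, so it may not match counts per gene, which can include reads over them. Which transcripts of Ern1 were present cannot be read from counts per gene. A change of length shifts the log2 ratio of every library by the same amount, so the order of the libraries is fixed: zinc replicate 3 had the highest ratio and Milli-Q water replicate 2 the lowest. The difference of this ratio between zinc and water was within the spread (log2 difference 0.14, exact two-sided permutation p = 0.743). Without zinc replicate 3 the difference was -0.17 (exact permutation p = 0.571), and in the 6 libraries without Milli-Q water replicates 3 and 4 it was 0.32 (exact permutation p = 0.667, smallest possible 0.0667).

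**Figure D2:**
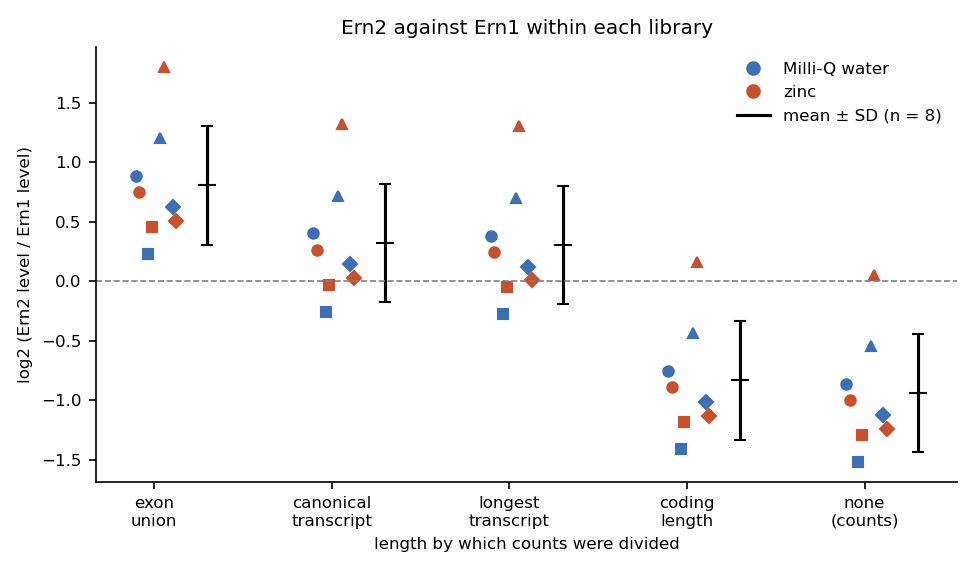
log2 ratio of the Ern2 to the Ern1 level in each library (blue, Milli-Q water; orange, zinc; circle, square, triangle and diamond are replicates 1 to 4) after division by 5 lengths; black bars are mean ± SD over 8 libraries. The mean is 0.81 by exon union and -0.83 by coding length, and the dashed line marks equal levels.

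For the effect of zinc, the edgeR quasi-likelihood F-test was fitted over all genes tested, with Benjamini-Hochberg adjustment. No gene of the 10 was called (0 of 10707 in the whole table, 0.0% called), with adjusted p from 0.485 to 0.962. At an unadjusted p under 0.05 there was 1 of the 10, Ern2, beside 10.2% of all genes tested (1092 genes, 6.42% higher and 3.78% lower with zinc). DESeq2 called 4 genes in the whole table and none of the 10. The groups did not overlap for 1 of the 10, Xbp1, beside 5.87% of all genes (2.76% higher and 3.12% lower with zinc). By sign, 7 of the 10 were lower and 3 higher with zinc, with a median log2 fold change of -0.15, beside 49.2% lower and a median of 0.01 over all genes. These counts are close to what the whole table gives, so they set the 10 genes apart in no direction.

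Within the IRE1 branch, Xbp1 was lower in each zinc library than in each water library. Xbp1 (chr11:5470606-5483027), the transcription factor made from the mRNA that IRE1 splices, was at 657, 617, 598 and 588 CPM in Milli-Q water replicates 1 to 4. In zinc replicates 1 to 4 it was at 510.4, 515, 287 and 570.0 CPM. The 2 groups therefore did not overlap, with zinc replicate 4 just under the lowest water library and zinc replicate 3 far below the rest. The log2 fold change was -0.39 (SE 0.21, edgeR adjusted p = 0.508). Without zinc replicate 3 it was -0.20, and without Milli-Q water replicates 3 and 4 it was -0.44. Xbp1 was not called in any of the 19 alternative settings.

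Ern2 had the smallest p of the 10. Its level was 83.3, 62.0, 73.0 and 66.8 CPM with water and 104, 81.7, 119 and 76.9 CPM with zinc (replicates 1 to 4). Milli-Q water replicate 1 was above zinc replicates 2 and 4, so the groups overlapped. The log2 fold change was 0.42 (SE 0.18, edgeR adjusted p = 0.485), 0.30 without zinc replicate 3 and 0.38 without Milli-Q water replicates 3 and 4. It was positive in all 19 alternatives, with an unadjusted p from 0.0185 to 0.151. Of 9 tested goblet cell markers, 6 were higher and 3 lower with zinc. Of these, 3 and 1 had an unadjusted p under 0.05 (beside 6.42% and 3.78% of all genes), with none called. Relative to the water mean, the mean log2 CPM of the 9 markers was 0.53, 0.53, 1.25 and -0.15 in zinc replicates 1 to 4. It was 0.17, -0.13, -0.07 and 0.03 in Milli-Q water replicates 1 to 4. Zinc replicates 1, 2 and 3 were thus above every water library and zinc replicate 4 below every one. For Muc2 alone, zinc replicates 1 to 4 gave 8009.5, 6081, 2639.7 and 9290.0 CPM. Within the zinc group Muc2 was thus lowest in zinc replicate 3, where Ern2 and the mean of the 9 markers were highest. Across both groups the lowest Muc2 level came from a water library, and the relation of Muc2 to Ern2 was not tested. The summed level of the 9 markers, in which abundant genes such as Muc2 weigh most, did not separate the groups. It was 10118 to 14359 CPM with water and 10211 to 14864 CPM with zinc. Of 9 tested crypt stem cell markers, 8 were higher and 1 lower, and 5 of the 8 had an unadjusted p under 0.05, beside 6.42% of all genes in that direction. They summed to 456 to 648 CPM with water and 527 to 1137 CPM with zinc. The part of either marker list in the Ern2 values was not tested.

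Ern1 was at 152, 178, 107 and 146 CPM with water and at 207, 201, 115 and 182 CPM with zinc. The third replicate of each group was the lowest, and the groups overlapped (log2 fold change 0.28, SE 0.22, edgeR adjusted p = 0.608). Without zinc replicate 3 the log2 fold change of Ern1 was 0.44 (edgeR unadjusted p = 0.0156, adjusted p = 0.563) and the groups no longer overlapped. In that setting 8.06% of all genes tested had an unadjusted p under 0.05, and the share without overlap is not given here. Without Milli-Q water replicates 3 and 4 the log2 fold change of Ern1 was 0.09.

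**Figure D3:**
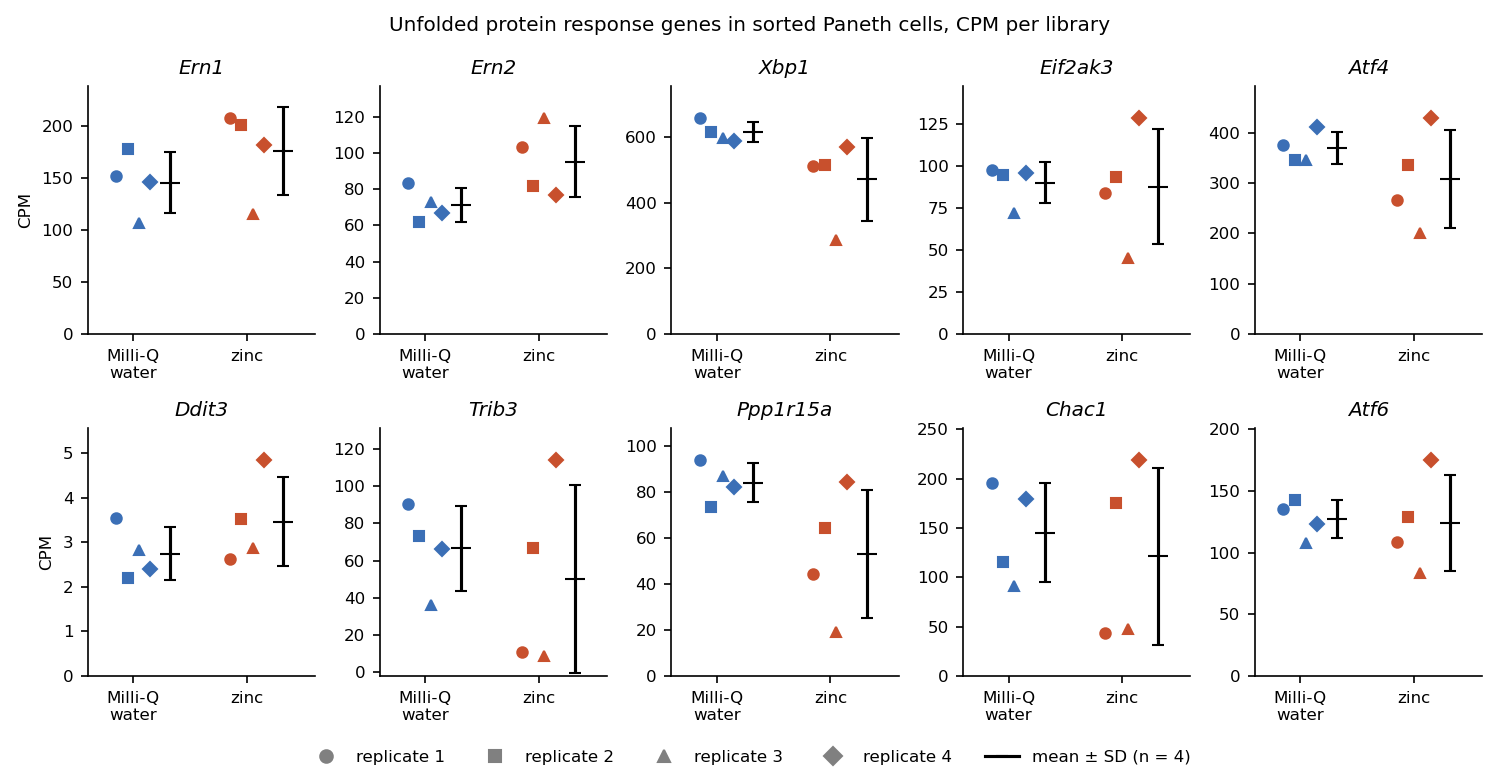
CPM of each of the 10 genes in the Milli-Q water (blue) and zinc (orange) libraries, each on its own linear axis; symbols are replicates 1 to 4 and black bars are mean ± SD (n = 4). Xbp1 is lower in each zinc library, and Trib3 and Chac1 are low in zinc replicates 1 and 3 but highest in zinc replicate 4; the lower bar of Trib3 reaches below 0.

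The genes downstream of PERK showed large differences between mice of the zinc group. Trib3 (chr2:152179337-152191958), a pseudokinase that restrains the pathway, was at 90.5, 73.4, 35.9 and 66.4 CPM in Milli-Q water replicates 1 to 4. With zinc it was at 10.5, 66.8, 8.28 and 114 CPM. Zinc replicates 1 and 3 were thus below every water library and zinc replicate 4 above every one. The highest library was 13.8 times the lowest, and the SD of log2 CPM over the 8 libraries, 1.43, was larger than that of 97.9% of the genes tested. The log2 fold change of -0.42 had an SE of 0.70 (edgeR adjusted p = 0.818), and it was -0.07 without zinc replicate 1, -0.06 without zinc replicate 3 and -1.22 without zinc replicate 4. Without Milli-Q water replicates 3 and 4 it was -0.71.

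Chac1 (chr2:119180757-119184866), an enzyme that degrades glutathione, followed the same libraries. It was at 195, 115.5, 91.2 and 179.5 CPM with water and at 43.4, 175, 47.4 and 219 CPM with zinc. Zinc replicates 1 and 3 were again below all water libraries and zinc replicate 4 above all of them. Its SD of log2 CPM, 0.92, was larger than that of 92.7% of genes. The log2 fold change was -0.26 (SE 0.50, edgeR adjusted p = 0.841), and it was 0.02 without zinc replicate 1, 0.01 without zinc replicate 3 and -0.72 without zinc replicate 4. Without Milli-Q water replicates 3 and 4 it was -0.36.

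Ppp1r15a (chr7:45172340-45175692) encodes GADD34, which directs a phosphatase to eIF2alpha. It was at 93.7, 73.4, 86.9 and 82.0 CPM with water and at 44.3, 64.3, 19.2 and 84.3 CPM with zinc. Zinc replicates 1, 2 and 3 were below all water libraries, while zinc replicate 4 lay within their range. The log2 fold change was -0.66 (SE 0.35, edgeR adjusted p = 0.502), -0.38 without zinc replicate 3, -0.98 without zinc replicate 4 and -0.66 without Milli-Q water replicates 3 and 4. Its SD of log2 CPM, 0.76, was larger than that of 88.5% of genes.

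The factors upstream of these genes had smaller spreads, with an SD of log2 CPM of 0.36 for Atf4 and 0.44 for Eif2ak3. Atf4 (chr15:80139372-80141745) was at 376, 345, 345 and 411 CPM with water and at 266, 336, 201 and 429 CPM with zinc (log2 fold change -0.26, SE 0.22, edgeR adjusted p = 0.627). The log2 fold change of Atf4 was -0.10 without zinc replicate 3 and -0.23 without Milli-Q water replicates 3 and 4. Without zinc replicate 4 it was -0.47 and the groups no longer overlapped (edgeR unadjusted p = 0.0447, adjusted p = 0.270). In that setting 17.9% of all genes tested had an unadjusted p under 0.05, and the share without overlap is not given here. Eif2ak3 (chr6:70821461-70882235), the gene of the PERK sensor, was at 97.8, 94.8, 71.9 and 96.1 CPM with water and at 84.3, 93.4, 45.3 and 129 CPM with zinc. Its log2 fold change was -0.04 (SE 0.27, edgeR adjusted p = 0.962) and turned to 0.18 without zinc replicate 3, while it was -0.28 without zinc replicate 4 and -0.14 without Milli-Q water replicates 3 and 4. Ddit3 was at 3.56, 2.20, 2.83 and 2.40 CPM with water and at 2.62, 3.51, 2.88 and 4.84 CPM with zinc (log2 fold change 0.34, SE 0.29, edgeR adjusted p = 0.628). It was 0.43 on that scale without zinc replicate 3, 0.13 without zinc replicate 4 and 0.26 without Milli-Q water replicates 3 and 4. For Atf4 and Eif2ak3, zinc replicate 3 was the lowest and zinc replicate 4 the highest of the 8 libraries, and for Ddit3 zinc replicate 4 was the highest.

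The third sensor gene, Atf6 (chr1:170532026-170696208), was at 135, 143, 108 and 123 CPM with water and at 109, 129, 83.4 and 175 CPM with zinc. The means were 127 ± 15.1 and 124 ± 38.7 CPM (SD, n = 4 each), and the log2 fold change was -0.04 (SE 0.22, edgeR adjusted p = 0.949). It was 0.11 without zinc replicate 3, 0.02 when either Milli-Q water replicate 2 or zinc replicate 1 was left out, -0.26 without zinc replicate 4 and -0.17 without Milli-Q water replicates 3 and 4. The SD of CPM was larger in the zinc group than in the water group for 10 of the 10 genes, beside 65.7% of all genes tested. Without zinc replicate 3 it was larger for 9 of the 10, beside 45.9% of all genes, and the difference in spread was not tested.

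Seen by library, zinc replicate 3 held the lowest value of 6 of the 10 genes (Xbp1, Eif2ak3, Atf4, Trib3, Ppp1r15a and Atf6) and the highest value of Ern2. Over all genes tested, 30.0% were lowest and 29.8% highest in that library, so it was extreme for the whole table. Zinc replicate 4 held the highest value of 6 (Eif2ak3, Atf4, Ddit3, Trib3, Chac1 and Atf6), where 11.9% of all genes were highest. Values below all water libraries were found for 5 of the 10 in zinc replicate 1 (beside 23.9% of all genes), 3 in zinc replicate 2 (19.6%), 7 in zinc replicate 3 (34.7%) and 1 in zinc replicate 4 (21.2%).

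The other genes of the pathway were read from gene lists, some of which share a gene (Dnajc3 is in 2 of them, and so is Atf3). No gene of any list had an adjusted p under 0.05 in the edgeR test. Among 17 tested targets of XBP1, which act in protein import, folding and degradation at the endoplasmic reticulum, 13 were lower and 4 higher with zinc (median log2 fold change -0.18) and none had an unadjusted p under 0.05. The smallest p was that of Bhlha15, a secretory cell transcription factor also known as MIST1, at 0.56 (log2 fold change, SE 0.26, edgeR adjusted p = 0.487). Among 11 targets of ATF6, 9 were lower and 2 higher (median -0.11). Sel1l, a part of the machinery that exports misfolded proteins for degradation, had a log2 fold change of 0.38 (edgeR adjusted p = 0.485). Of 5 tested partners and RNA substrates of IRE1, 2 were lower and 3 higher (median 0.10). Hgsnat, a known substrate of the RNase, was higher in each zinc library, at 9.47 to 16.2 CPM against 7.88 to 9.44 CPM (log2 fold change 0.51, edgeR adjusted p = 0.485). Its lowest zinc library lay just above its highest water library. Without zinc replicate 3 the log2 fold change was 0.23 for Bhlha15, 0.27 for Sel1l and 0.35 for Hgsnat, and the list medians were -0.04, -0.09 and 0.12 for the targets of XBP1, of ATF6 and the IRE1 partners. Without Milli-Q water replicates 3 and 4 these medians were -0.02, -0.11 and -0.04.

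The eIF2alpha kinases and regulators had 8 of 12 genes lower and 4 higher (median -0.09). Nck1, an adaptor, had a log2 fold change of -0.49 (edgeR adjusted p = 0.485), and of -0.14 without Milli-Q water replicates 3 and 4. Eif2b1, a subunit of the exchange factor for eIF2, did not overlap between groups, at 24.5 to 27.1 CPM with water and 21.8 to 23.8 CPM with zinc (log2 fold change -0.18, edgeR adjusted p = 0.534). Of 9 tested relatives of ATF6 and other membrane-anchored factors, 3 were lower and 6 higher (median 0.08), and Mbtps1, the protease that makes the first cut in ATF6, had the smallest p (log2 fold change 0.21, edgeR adjusted p = 0.579).

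Targets of ATF4 and CHOP repeated the pattern of Trib3 and Chac1 by library. Of 17 tested, 14 were lower and 3 higher with zinc, with a median log2 fold change of -0.13. In the fit without zinc replicate 3, 12 were lower (median -0.09), and without Milli-Q water replicates 3 and 4, 15 were (median -0.21). In zinc replicate 1, 13 of the 17 (76.5%) were below all water libraries, beside 23.9% of all genes tested. In zinc replicate 3 it was 8 of the 17 (47.1%, beside 34.7%), in zinc replicate 2 it was 5 (29.4%, beside 19.6%) and in zinc replicate 4 it was 1 (5.88%, beside 21.2%). Relative to the water mean, the mean log2 CPM of these targets was -1.01, -0.11, -0.69 and 0.45 in zinc replicates 1 to 4. Ddit4, an inhibitor of mTOR complex signaling, was the 1 target of the 17 with groups that did not overlap (5.88%, beside 5.87% of all genes tested). It was at 266, 232, 220.4 and 261 CPM with water and at 56.4, 211, 59.0 and 211 CPM with zinc (log2 fold change -0.87, SE 0.42, edgeR adjusted p = 0.491, and -0.61 without zinc replicate 3). Slc7a11, the cystine transporter, and Sesn2, a stress-induced regulator of mTOR, were chosen after their values were seen. Slc7a11 was at 2.72 and 9.40 CPM in zinc replicates 1 and 3 and at 64.4 CPM in zinc replicate 4, against 6.28 to 39.4 CPM with water. Sesn2 was at 5.90, 16.3 and 60.8 CPM in the same 3 zinc libraries, against 14.0 to 49.9 CPM with water. In zinc replicate 3 both genes lay within the range of the water libraries, unlike Trib3 and Chac1. Their values in zinc replicate 2 are not given here.

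**Figure D4:**
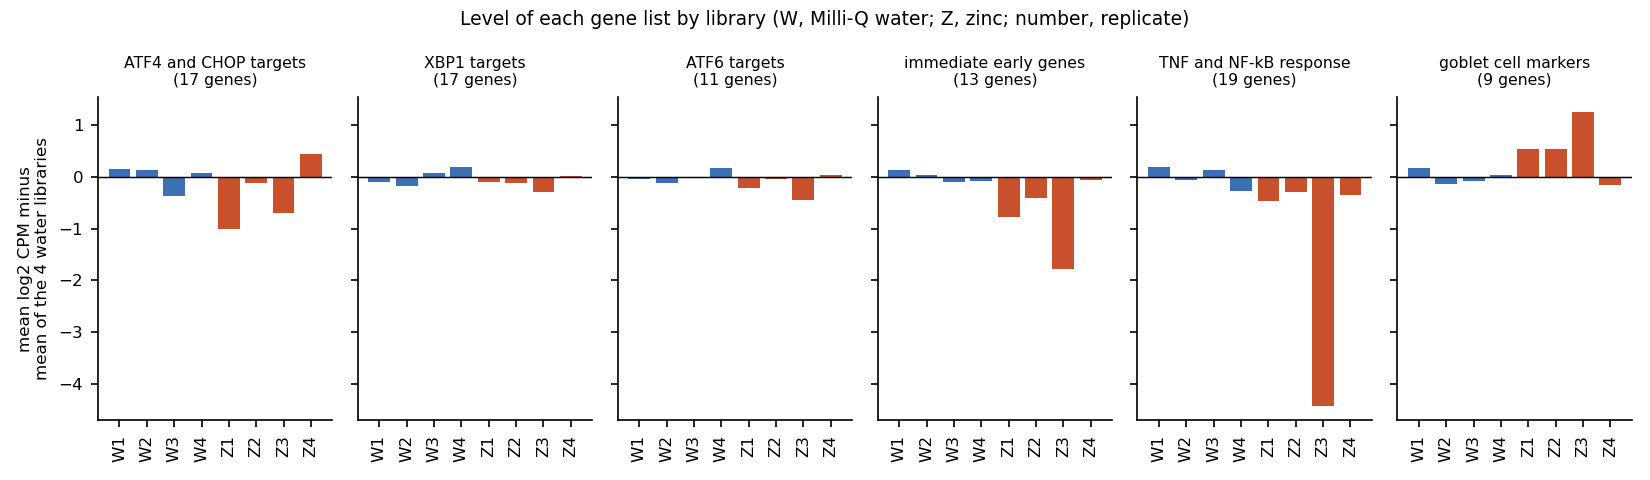
Mean log2 CPM of the tested genes of 6 lists in each library, minus the mean of the 4 Milli-Q water libraries (W, blue; Z, zinc, orange; the number is the replicate). ATF4 and CHOP targets are lowest in zinc replicate 1 (-1.01), while the TNF and NF-kB list is lowest in zinc replicate 3 (-4.42).

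Other responses differed between the same libraries. Immediate early genes, 13 of them tested, were at -0.77, -0.41, -1.78 and -0.06 relative to the water mean (mean log2 CPM) in zinc replicates 1 to 4. Of these 13, 12 were below all water libraries in zinc replicate 1 (beside 23.9% of all genes), 9 in zinc replicate 2 (19.6%), 11 in zinc replicate 3 (34.7%) and 4 in zinc replicate 4 (21.2%). They include Jun, a stress-responsive transcription factor, at 66.2 to 85.3 CPM with water and 52.3 to 61.8 CPM with zinc (log2 fold change -0.45, edgeR adjusted p = 0.485). Klf6, Fos and Egr1, further transcription factors of this kind, had log2 fold changes of -0.74, -0.42 and -0.73 (edgeR adjusted p = 0.485 each). With zinc replicate 3 left out, Jun, Klf6, Fos and Egr1 were at -0.41, -0.49, -0.50 and -0.53. The TNF and NF-kB list was at -0.46, -0.29, -4.42 and -0.34 in zinc replicates 1 to 4. Its genes of smallest p were Nfkbiz, Cxcl2, Zc3h12a and Irf1, with log2 fold changes of -1.30, -2.36, -1.13 and -0.87 (edgeR adjusted p = 0.485 each), and -1.06, -1.91, -0.81 and -0.55 without zinc replicate 3. The median of the list moved from -0.45 to -0.11 without that library. The 2 zinc libraries with low Trib3 and Chac1 therefore differed in their level of TNF response genes. The part of either list in the ATF4 pattern was not tested. With zinc, 8 of 10 PC markers were lower, with a median log2 fold change of -0.28, and 7 of 10 without zinc replicate 3. Without Milli-Q water replicates 3 and 4, 3 of 10 were lower. The 8 tested enterocyte markers had log2 fold changes above 0, with zinc replicate 3 far above the rest. They summed to 97.1 to 124 CPM with water and to 166, 132, 511 and 84.8 CPM in zinc replicates 1 to 4, and in zinc replicate 4, 6 of the 8 were below all water libraries. When zinc replicate 3 was left out, 5 of the 8 were higher and 3 lower. Of the enteroendocrine and tuft list, 3 of 9 genes were tested, and they stayed at or under 16.5 CPM in sum. Of the immune and stromal list, 3 of 13 genes were tested. They summed to 47.5 to 102 CPM with water and 32.6 to 42.4 CPM with zinc. These sums rest on 3 genes each and are not read as amounts of these cells.

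Co-variation was measured over the 8 libraries as Pearson r and Spearman rho of log2 CPM for all 45 pairs, each with an exact two-sided permutation p over 40320 pairings, adjusted over the 45 pairs. By r, 37 pairs were positive and 8 negative, and 19 passed an adjusted p of 0.05, of which 16 were positive and 3 negative. The share of all gene pairs that would pass is not given here. Of the 10707 genes tested, 943 had an r over 0.9 with Xbp1, 86 with Ern2 and 1 with Ddit3. The count of 19 is therefore not read as a trait of the 10 genes. By rho, 0 of the 45 passed, with the smallest adjusted p at 0.0513. Of the 19 pairs, 17 also passed with group means removed, where 26 of the 45 passed, and 0 passed without zinc replicate 3. Deviations from group means sum to 0 within each group, so their permutation p is only approximate and may be too small. Without Milli-Q water replicate 1 or 4 the count was 9, and without zinc replicates 1, 2 or 4 it was 7, 5 or 4. When the 2 libraries farthest from the median of the first gene of the pair were left out, 3 of the 19 had an exact p under 0.05 over the remaining 6.

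These 3 pairs linked Trib3, Chac1, Atf6 and Eif2ak3. Trib3 and Chac1 had r = 0.963 and rho = 0.881 (exact permutation p = 0.000918 and 0.00724, adjusted p = 0.0129 and 0.0652). Their r was 0.838 without zinc replicates 1 and 3, 0.955 without zinc replicate 3 and 0.964 within groups. Trib3 and Atf6 had r = 0.883 and rho = 0.952 (exact permutation p = 0.000372 and 0.00114, adjusted p = 0.0117 and 0.0513), with r = 0.912 without zinc replicates 1 and 3. Eif2ak3 and Atf6, the genes of 2 sensors, had r = 0.950 and rho = 0.881 (exact permutation p = 0.000521 and 0.00724, adjusted p = 0.0117 and 0.0652), with r = 0.818 without zinc replicates 3 and 4. Zinc replicate 4 was high and zinc replicate 3 low for all 4 of these genes.

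The other 16 pairs had an exact p of 0.0806 or more once 2 libraries were left out, which were zinc replicates 1 and 3 for 13 of them and zinc replicates 3 and 4 for the 3 pairs of Eif2ak3 with Atf4, Trib3 and Chac1. Xbp1 and Ppp1r15a had the highest r of all, 0.965 (rho = 0.833, exact permutation p = 0.00141 and 0.0154, adjusted p = 0.0129 and 0.0865), and 0.769 without zinc replicates 1 and 3. Atf4 and Trib3 had r = 0.924 (rho = 0.738, exact permutation p = 0.00144 and 0.0458, adjusted p = 0.0129 and 0.188), and 0.596 without them. Over all 8 libraries Ern2 was the gene with negative relations: with Ppp1r15a r was -0.832 (rho = -0.429, exact permutation p = 0.0111 and 0.299, adjusted p = 0.0366 and 0.449). It was 0.138 without zinc replicates 1 and 3. With Atf4 and Xbp1, r for Ern2 was -0.829 and -0.796 over 8 libraries, and 0.0147 and -0.208 over 6. Without zinc replicate 3 alone, r for Ern2 was -0.637 with Ppp1r15a, -0.620 with Atf4 and -0.563 with Xbp1. The sign differed by group. Within the 4 water libraries r for Ern2 was 0.971 with Ppp1r15a, 0.111 with Atf4 and 0.657 with Xbp1. Within the 4 zinc libraries these values were -0.960, -0.978 and -0.841. A negative relation was therefore not seen among the water mice, and the difference between groups was not tested. The 6 libraries leave out the 2 farthest from the median of Ern2, which narrows its range. They therefore cannot tell whether the relation is absent.

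**Figure D5:**
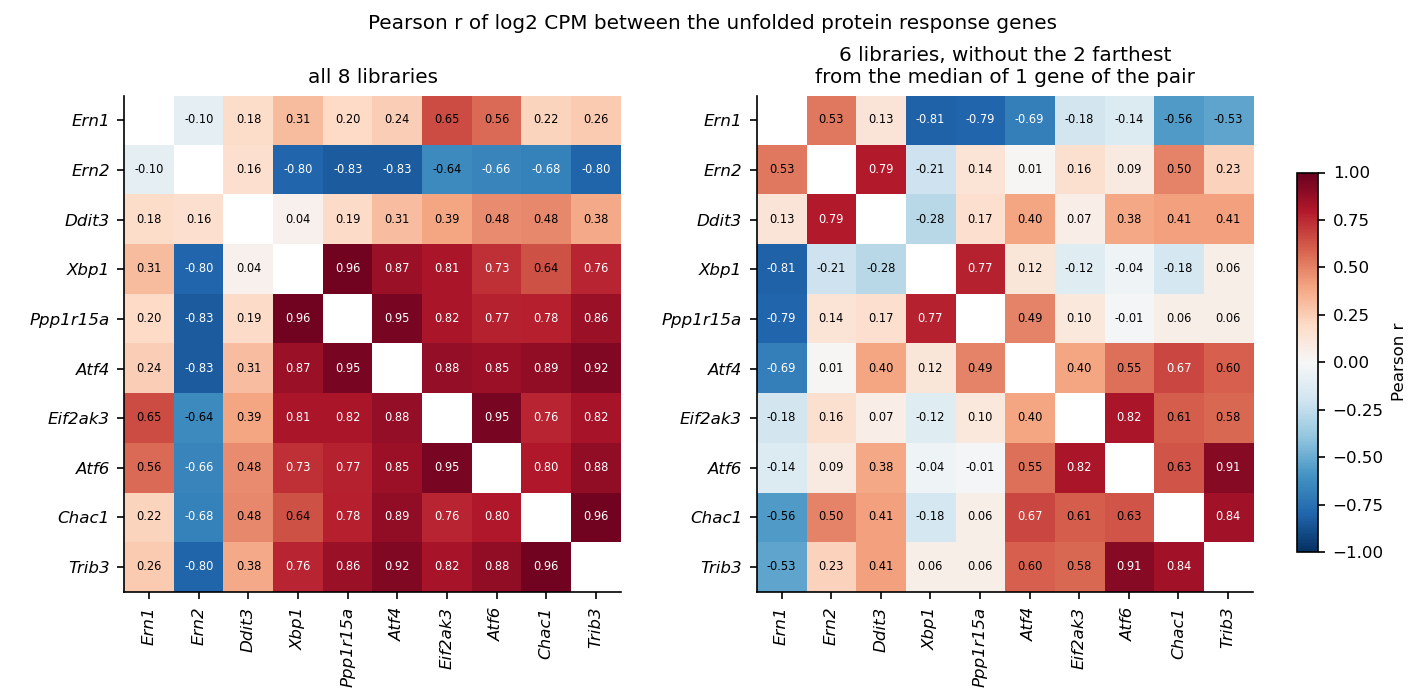
Pearson r of log2 CPM for the 45 pairs of genes, over all 8 libraries (left) and over 6 libraries without the 2 farthest from the median of the first gene of the pair (right); red is positive and blue negative. The positive block on the left thins out on the right, where Trib3 with Atf6 (0.912) and with Chac1 (0.838) stay high.

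Ern1 and Ern2 showed little relation (r = -0.0998, rho = 0.167, exact permutation p = 0.818 and 0.703, adjusted p = 0.837 and 0.772), and no pair with Ern1 passed, with adjusted p for r of 0.116 or more. Ddit3 had no pair past the threshold either, with r from 0.0446 to 0.480 and adjusted p of 0.325 or more. Its 23 to 60 counts per library give it more counting error than the other 9 genes.

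Among all genes tested, those whose log2 CPM followed Ern2 most closely over the 8 libraries were Fam76a, Rbm5, Atp6v1d, Evl and Zfp219, with r from 0.980 down to 0.962, and 86 genes had an r over 0.9. For Xbp1 they were Tat, Bnip5, Tut7, Mst1r and Nkpd1, with r from 0.997 to 0.993, and 943 genes had an r over 0.9. For Ddit3 they were Trim45, Suv39h2, Fetub, Map2k2 and Taf11, with r from 0.931 to 0.879, and 1 gene had an r over 0.9. These r values are descriptions over libraries that include zinc replicate 3, in which Xbp1 was far lower and Ern2 higher than elsewhere.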

How the data were processed

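The authors deposited raw read counts per Ensembl gene, 1 column for each of the 8 libraries, and these counts were used as deposited. The labels name a stranded mRNA kit and, in the submitters' processing notes, FastQC 0.12.0, STAR 2.7.10a, DESeq2 and the mm39 genome. The counter, the annotation release and the rule for reads with several matches are not given in the sources used here. The methods of the study name a GENCODE annotation for a re-mapping of its own, and do not state that the deposited counts came from it. Identifiers were matched to GENCODE M39 on GRCm39 (54749 of 55414, the other 665 holding 0.00443% of counts), which gave symbols, coordinates and lengths.

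The groups were compared over all 8 libraries in edgeR 4.0.16 under R 4.3.3, with glmQLFTest, TMM factors and filterByExpr. The filter kept 10707 genes with 99.9% of the counts, the biological coefficient of variation was 0.269, and the Benjamini-Hochberg threshold over these genes was 0.05. The log2 CPM used a prior count of 0.5. Correlations, ratios and neighbor levels were tested by exact permutations over libraries (scipy 1.17.1). DESeq2 1.42.0 and limma 3.58.1 were alternatives. Counts of every 2 libraries (28 pairs) differed by more than sampling noise, with chi-square over degrees of freedom at 6.05 or more. The labels call the samples replicates, and each is a separate mouse in the design text. Reads had no molecular identifiers, so floors for undetected genes allow for counting error alone.

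The 10 genes are defined by name and role rather than by a measured value, but they, the gene lists and the tests were chosen with earlier results of these data known. Named genes were the 10 themselves, genes of the pathway and response lists without overlap or with an unadjusted p under 0.05 (at most 4 per list, otherwise the gene of smallest p), the 5 genes most correlated with Ern2, Xbp1 and Ddit3, and the markers Defa24, Lyz1, Muc2 and those at 0. Slc7a11 and Sesn2 were named outside this rule, after their values were seen. The fit was tested on simulated counts of the same 4 against 4 comparison: of 200 changed genes among 10707, 36.5% were recovered at a log2 change of 1 and 91.8% at a log2 change of 2. The check of replicate numbers gave correlations of -0.0146 to 0.0301 between same-numbered libraries, so libraries were not paired.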

Additional observations from a re-analysis of the deposited data

Results flagged for a closer look

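In a search for a library far from the other 3 of its group by Dixon's criterion, over 22 sets of 4 values, 2 stood out, where about 1.1 would by chance. Xbp1 was at a log2 CPM of 8.16 in zinc replicate 3, against 8.996 to 9.155 in the other zinc libraries. Eif2ak3 was at a log2 CPM of 6.17 in Milli-Q water replicate 3, against 6.57 to 6.61 in the other water libraries. Both are libraries that stood apart over the whole table, the first by its TNF and NF-kB genes and the second by its trend with transcript length, and the part of either in these values was not tested.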

How the results depend on the processing

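No gene of the 10 was called under any of the 19 alternatives, and in the whole table DESeq2 called 4 genes where edgeR called 0. Of the log2 fold changes of the 10 genes, 181 of 190 kept their sign, and none changed its side of the threshold. Eif2ak3 changed sign with limma-voom and sample weights (0.0064) and in the 5 libraries without Milli-Q water replicates 3 and 4 and zinc replicate 3 (0.088). With single libraries left out, the log2 fold change ran from -0.28 to 0.18 for Eif2ak3, from -0.72 to 0.021 for Chac1 and from -0.26 to 0.11 for Atf6. The count of genes at an unadjusted p under 0.05 was 1, and became 3 with limma-voom, 2 with no filter, 0 in the same 5 libraries, 0 in the 6 libraries without Milli-Q water replicates 3 and 4, and 0 to 3 with single libraries left out. Over all genes this share ran from 2.78% in those 6 libraries to 17.9% without zinc replicate 4. Genes with groups that did not overlap numbered 2 in the 5 libraries and 1 to 3 with single libraries left out. Smaller groups separate more readily, and the share of all genes in these settings is not given here. These counts are therefore not read as a result about the 10 genes.

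The Ern2 level minus the Ern1 level (log2) was 0.81 by exon union and became 0.30 by longest transcript, 0.32 by canonical transcript, a length added after the data were seen, -0.83 by coding length and -0.94 with no length correction. These shifts follow from the lengths alone. The zinc minus water difference of the ratio, 0.14, ran from -0.17 to 0.30 with single libraries left out. Neighbors told apart in the order of levels numbered 0 to 3 of 9 with single libraries left out, and 4 by coding length. Correlated pairs numbered 0 to 21 of 45 with single libraries left out, with the 0 reached without zinc replicate 3. With group means removed they numbered 26, by a permutation p that is then only approximate. For the order, fewer libraries also raise the smallest p. With a replicate block on the replicate numbers, which the pairing check did not bear out, 0 genes were called, 1 of the 10 had an unadjusted p under 0.05, the whole table had 802 instead of 1092 such genes, and the ratio difference was 0.14 (exact sign-flip p = 0.625). With 4 libraries per group, a log2 change of 1 would often be missed, and Ddit3, at 320 counts in all, is the least precisely measured of the 10. A trend with transcript length removed by lowess, also added after the data were seen, changed no call.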
